A study of Drosophila melanogaster with 2 samples.

Results

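The Snail family of Drosophila melanogaster consists here of 4 genes, snail (sna), escargot (esg), worniu (wor) and scratch (scrt), out of 13945 protein-coding genes on the 6 main chromosome arms. They were chosen by name, and every enriched region was taken whose summit, the position of highest signal, lay within a gene's span extended by 5000 bp on each side. The whole stretch of 2L from esg through wor to sna was added. On this rule the family held 6 of the 4221 thresholded peaks of the pooled list and 125 of its 105842 candidate regions. The own list of replicate 1 contributed 3 of 2876 peaks and 52 of 46847 candidates, and that of replicate 2 contributed 6 of 2225 peaks and 115 of 102292 candidates.

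The study mapped a tagged Snail protein in whole embryos, 0 to 24 h old, of a transgenic line that makes a sna-eGFP fusion, by chromatin immunoprecipitation and sequencing. The description in the labels names an antibody against GFP and their antibody field names sna, so it is not settled whether the signal is of the fusion alone or also of native Snail. There was 1 group with 2 biological replicates and no second genotype or treatment, so nothing is compared between conditions. The promoter and the extent of the transgene are not stated in the labels, and reads from a transgene copy of sna and from the native locus cannot be told apart. Samples of a control experiment were not analysed here, and all embryonic cells were pooled, so a signal cannot be assigned to a cell type or a stage. Signal values are the authors' own, on a scale that is not stated, and are set side by side only within a list. The irreproducible discovery rate (IDR) scores how steadily a peak keeps its rank between runs, and a thresholded peak has a −log10 IDR of at least 2, while a candidate is any region in the longer ranked list. Of the 4360 pooled candidates past that limit 139 are not in the thresholded list, for reasons that are not stated, and 0 of these are in the family. Read counts are not in the files, so the depth of each replicate is unknown.

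Snail family proteins are transcription factors with a row of zinc fingers near the carboxyl end that read the hexamer CAGGTG, and in flies several of them recruit the corepressor CtBP through short peptide motifs. Snail represses neural and ectodermal genes in the presumptive mesoderm and is needed for gastrulation. Escargot keeps imaginal cells diploid and maintains intestinal stem cells, Worniu acts in neural stem cells (neuroblasts), and sna, esg and wor share a role in the asymmetric division of neuroblasts. Scratch, a more distant relative, acts in neurons. Among the family's genes, only sna encodes the Snail protein mapped here. Any of the family's genes may be a place where that protein lies on DNA.

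All 4 genes had a thresholded pooled peak at the gene's own promoter, defined as a summit within 500 bp of an annotated start site. The windows of 201 bp around the 4 promoter summits and around a peak downstream of esg are shown because the results turn on them. They are written 5′ to 3′ on the gene's strand from the RefSeq copy of the Release 6 (dm6) genome, and capitals mark matches to any of 6 motifs described further on. Summits lie at the centre of each window. The windows are chr2L:15478309-15478509 (minus strand) for sna, chr2L:15333639-15333839 (plus strand) for the esg promoter, chr2L:15339717-15339917 (plus strand) for esg downstream, chr2L:15425866-15426066 (minus strand) for wor and chr3L:3983455-3983655 (plus strand) for scrt.
sna promoter: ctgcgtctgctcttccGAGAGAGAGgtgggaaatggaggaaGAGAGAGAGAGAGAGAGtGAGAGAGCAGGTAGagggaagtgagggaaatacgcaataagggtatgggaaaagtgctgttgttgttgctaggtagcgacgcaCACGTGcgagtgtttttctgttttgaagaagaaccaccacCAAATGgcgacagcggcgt
esg promoter: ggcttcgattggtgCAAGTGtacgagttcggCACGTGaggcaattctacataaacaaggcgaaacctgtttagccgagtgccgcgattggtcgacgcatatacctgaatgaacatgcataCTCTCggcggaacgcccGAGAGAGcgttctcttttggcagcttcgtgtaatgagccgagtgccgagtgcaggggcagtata
esg downstream: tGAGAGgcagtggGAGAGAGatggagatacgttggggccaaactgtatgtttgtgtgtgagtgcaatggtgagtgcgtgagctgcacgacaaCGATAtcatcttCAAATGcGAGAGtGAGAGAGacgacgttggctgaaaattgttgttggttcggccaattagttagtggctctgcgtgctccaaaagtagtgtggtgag
wor promoter: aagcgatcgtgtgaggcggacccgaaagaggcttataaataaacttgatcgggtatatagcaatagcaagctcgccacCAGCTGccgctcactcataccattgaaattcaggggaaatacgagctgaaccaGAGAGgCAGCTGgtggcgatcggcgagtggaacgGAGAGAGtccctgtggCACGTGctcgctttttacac
scrt promoter: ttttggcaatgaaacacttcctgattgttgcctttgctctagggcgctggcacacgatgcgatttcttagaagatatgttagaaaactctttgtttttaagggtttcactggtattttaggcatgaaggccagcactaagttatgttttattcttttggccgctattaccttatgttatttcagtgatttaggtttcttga

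Of the 13945 coding genes 27.5% had a pooled peak within 500 bp of an own start site, and 52.7% had one within 5000 bp of the span. The family's counts were 4 of 4 on either measure. In the own list of replicate 1, 2 of the 4 genes had a peak within 5000 bp (45.0% of coding genes), and in that of replicate 2 there were 3 of 4 (36.7%). With 4 genes and 2 replicates such counts describe these lists and carry no test. None (0) of the 4 genes had a thresholded summit between its start and its end, where 13.8% of coding genes had one. In the pooled list as a whole 83.9% of peaks were promoter peaks, and in the family it was 4 of 6. All 6 family peaks were 516 bp wide, as were 79.8% of the pooled peaks, the most frequent width, and their summits lie at the centre.

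**Figure D1:**
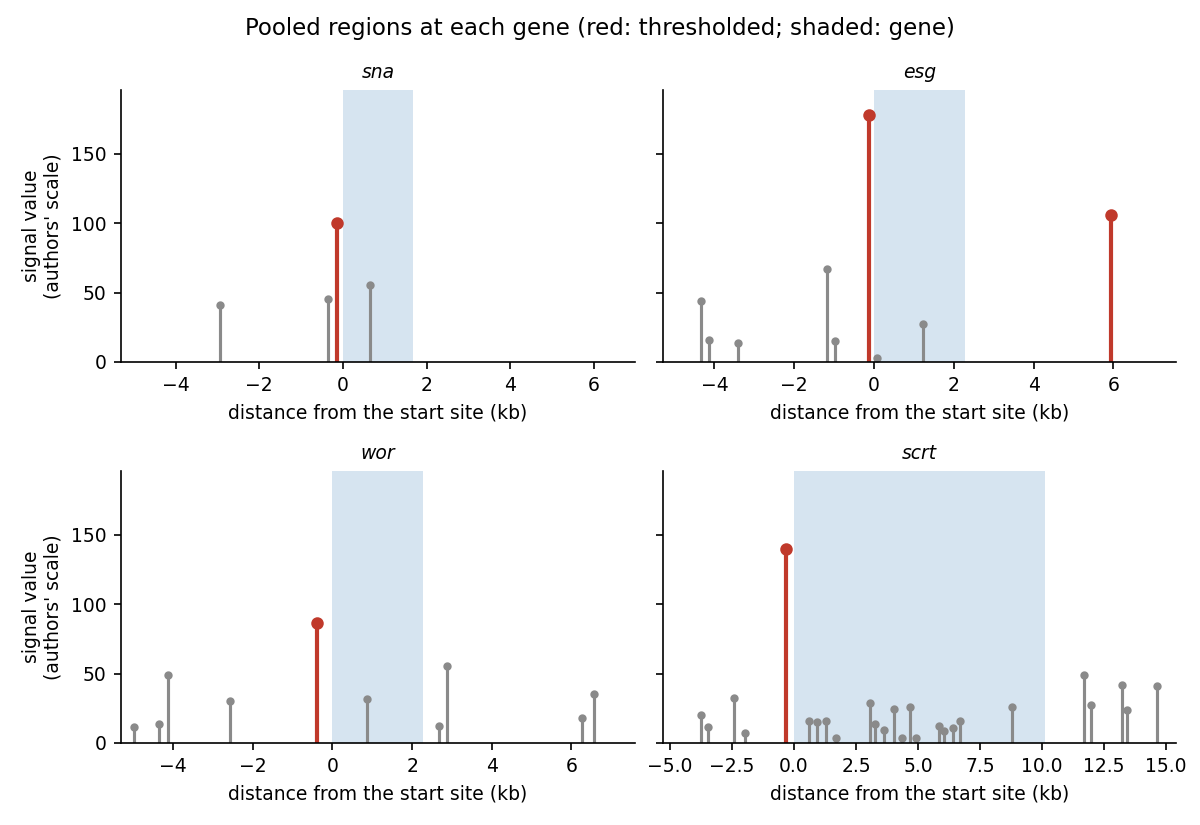
Pooled regions within 5000 bp of each gene, with distance from the start site in the direction of transcription (kb) on the x axis and the authors' signal value on the y axis, which is shared by the 4 panels. Red stems are thresholded peaks, grey stems are candidates that were not kept and the shaded band is the gene. Each gene has a red stem just left of its start site, from 86.5 at wor to 178 at esg, and only esg has another, at 5951 bp downstream.

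The gene sna itself (FBgn0003448) is a compact gene of 1668 bp on the minus strand of 2L, from 15476593 to 15478260. Its peak covered 2L from 15478151 to 15478666 with the summit 149 bp upstream of the start site. The signal was 99.9, at rank 2342 of 4221, so that 44.5% of the pooled peaks were weaker, and the −log10 IDR was 2.64. In replicate 1 the overlapping region was a candidate only, with a signal of 44.4 and a −log10 IDR of 1.72. In replicate 2 it was a thresholded peak, with a signal of 47.3 and a −log10 IDR of 2.15, near the limit. The replicates placed their summits 134 bp apart, at 210 bp upstream in replicate 1 and 76 bp upstream in replicate 2. This was the widest gap of the 5 family peaks that had a region in both replicates.

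Around the sna summit lay 3 weaker pooled candidates, and they made up the rest of its 4 regions. The strongest (2L, 15477359 to 15477874) reached 55.3 and had its summit in the coding exon, 643 bp downstream of the start site. Replicate 1 had no region there, and replicate 2 had 19.0. The next candidate, 349 bp upstream by its summit, reached 45.1. It overlapped the promoter peak. The strongest region under it was the same as under the promoter peak in each replicate, and replicate 2 also had a region of its own with a summit at 15478580, a signal of 22.2 and a −log10 IDR of 0.56. The third, 2942 bp upstream, had a signal of 40.7 in the pooled list, 23.0 in replicate 1 and 20.7 in replicate 2, with a −log10 IDR of 0.22.

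The gene esg (FBgn0287768, plus strand of 2L, 15333866 to 15336138) had the strongest peak of the family. It covered 2L from 15333481 to 15333996 with the summit 127 bp upstream of the start site, a signal of 178, rank 1021 of 4221 and 75.8% of pooled peaks weaker. Its −log10 IDR of 4.10 was the highest of the 6 peaks. It was a thresholded peak in both replicates. Replicate 1 gave a signal of 96.9 (rank 1117 of 2876, −log10 IDR 3.34) and replicate 2 gave 80.2 (rank 933 of 2225, −log10 IDR 3.09), with summits 22 bp apart. Replicate 2 also listed an overlapping thresholded region with a signal of 2.43, at rank 2219 of 2225. Its −log10 IDR of 3.09 was the same as that of the stronger peak it overlapped. That region is far below the list's candidates in general, whose median was 12.1, and 5.48% of the thresholded peaks of replicate 2 lay below that median.

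The other esg peak covered 2L from 15339559 to 15340074, in intergenic sequence 5951 bp downstream of the esg start site and past the end of the gene. Its signal was 106, at rank 2181, with 48.3% of pooled peaks weaker and a −log10 IDR of 2.84. The replicates differed in their call. In replicate 1 the region was a candidate with a signal of 47.4 and a −log10 IDR of 0.47, and in replicate 2 a thresholded peak with 59.2 and 2.67. Their summits were 73 bp apart. Upstream of esg the strongest candidate that was not kept, (2L, 15332426 to 15332941), reached 67.0 at 1182 bp upstream, with 27.2 in replicate 1 and 29.1 in replicate 2. It ranked 4866 among all 105842 candidates, and its −log10 IDR of 1.54 lay under the limit. Further candidates were at 4346 bp upstream (43.7 pooled, 18.6 in replicate 1 and 17.4 in replicate 2) and in the coding exon 1232 bp downstream (27.3 pooled, absent from replicate 1, 30.8 in replicate 2).

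The gene wor (FBgn0001983, minus strand of 2L, 15423297 to 15425580) had the weakest of the 4 promoter peaks. It covered 2L from 15425708 to 15426223 with the summit 386 bp upstream of the start site. The signal was 86.5, at rank 2879, with 31.8% of pooled peaks weaker and a −log10 IDR of 2.32. Neither replicate kept it in its own thresholded list. Replicate 1 had a candidate of 54.9 with a −log10 IDR of 1.18, and replicate 2 one of 33.5 with 1.47, and the summits lay 16 bp apart, the smallest gap of the family. Thus the replicates placed the region at nearly the same position while both ranked it below their own limits. Among the candidates that were not kept, the strongest had a signal of 55.5 at 2881 bp downstream of the wor start site, past the end of the gene, with 28.5 in replicate 1 and 18.9 in replicate 2. Another, of 48.6, lay nearest to the start site of CG4161, with 35.2 in replicate 1 and 10.0 in replicate 2. A region of 35.0 nearest to CG44869 was absent from replicate 1 and reached 27.4 in replicate 2.

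The gene scrt (FBgn0004880, plus strand of 3L, 3983896 to 3994003) is 10108 bp long and lies apart from the other members. Its peak covered 3L from 3983297 to 3983812 with the summit 341 bp upstream of the start site. The signal was 140, at rank 1434, with 66.0% of pooled peaks weaker and a −log10 IDR of 3.57. Both replicates kept it, replicate 1 with 60.3 (rank 2106 of 2876, −log10 IDR 2.22) and replicate 2 with 80.0 (rank 936 of 2225, −log10 IDR 3.16), and the summits lay 19 bp apart. Each replicate listed a weak overlapping peak too, of 14.7 in replicate 1 and 13.1 in replicate 2. In each replicate its −log10 IDR was the same as that of the stronger peak. The span of scrt held 26 pooled candidates, of which 8 lay in its 3′ UTR, 5 in coding exons, 2 in the 5′ UTR, 1 in an intron, 1 at the promoter and 9 in intergenic sequence. Many of them overlapped each other, and merging left 10 sites. The 3 strongest that were not kept had signals of 48.6, 42.0 and 41.0 and all lay beyond the 3′ end, nearest to the start site of CG14985. In replicate 1 these read 22.4, 19.8 and 22.2, and in replicate 2 they read 28.4, 23.3 and 20.1.

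**Figure D2:**
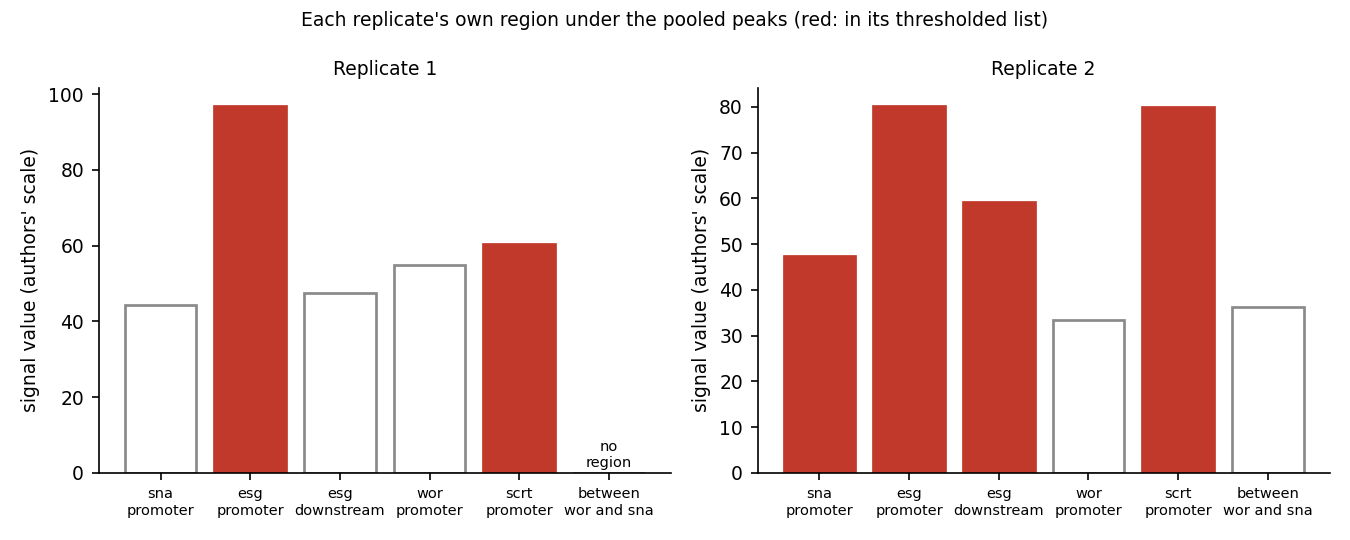
Signal value (authors' scale, y axis, a separate scale for each replicate) of each replicate's own strongest region under the 6 pooled peaks of the family (x axis). Red bars are regions in the replicate's thresholded list and open bars are candidates only. The esg and scrt promoters are red in both panels, the wor promoter in neither, and replicate 1 has no region at the intergenic peak between wor and sna.

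The order of the promoter peaks was not the same throughout. In the pooled list it was esg, scrt, sna, wor. In replicate 1 it was esg (96.9), scrt (60.3), wor (54.9), sna (44.4), and in replicate 2 esg (80.2) and scrt (80.0) were nearly level, followed by sna (47.3) and wor (33.5). Across both replicates esg and scrt stood above sna and wor, and the order of sna against wor turned. With 2 replicates no spread can be set beside these differences.

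Of the 6 family peaks, 2 overlapped a thresholded peak of both replicates, 0 of replicate 1 alone, 2 of replicate 2 alone (the sna promoter and esg downstream) and 2 of neither. Of all pooled peaks 44.4% overlapped both, 22.2% replicate 1 alone, 7.32% replicate 2 alone and 26.0% neither. Promoter peaks in general overlapped both in 49.7% of cases and other peaks in 17.0%. Against the candidate lists, 5 of the 6 family peaks had a region in both replicates, as did 4179 of all 4221 pooled peaks. Of the 99 pooled candidates of the esg to sna stretch, 37 (37.4%) overlapped a candidate of both replicates, as did 10 of 26 (38.5%) at scrt, against 46.1% of all pooled candidates.

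Over the 37 candidates of the stretch with a region in both replicates, the signals of the 2 replicates gave rho = 0.43 (Spearman) and, after log10, r = 0.64 (Pearson). Over all 48806 such candidates these were 0.51 and 0.67, and over 4179 thresholded peaks 0.74 and 0.79. The points share the same 2 libraries and some share an own region, so these values are given as a description only. Where the summits of the replicates lay within 100 bp, rho in the stretch was 0.68 over 17 candidates. That filter was not applied to all candidates, so 0.68 cannot be set beside their 0.51.

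**Figure D3:**
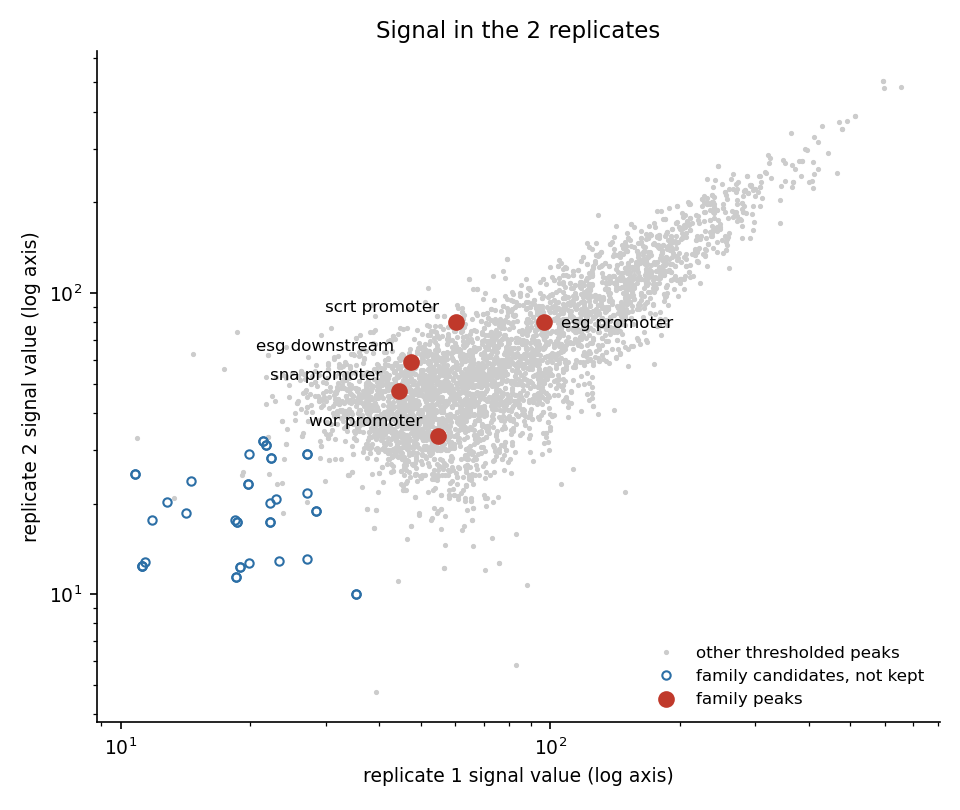
Signal value of the region in replicate 1 (x axis, log scale) against replicate 2 (y axis, log scale). Grey points are thresholded pooled peaks with a region in both replicates, open blue circles are family candidates that were not kept, and red points are 5 of the 6 family peaks. The red points lie inside the grey cloud, with the esg promoter highest in replicate 1 and the esg and scrt promoters level in replicate 2, and the visible blue circles sit below them at 35.2 or less in replicate 1. Another 2 circles are hidden under the sna and esg promoter points, since the strongest region under them is the same.

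The genes esg, wor and sna share 1 stretch of 2L, taken here from 15328866 to 15483260, which is 5000 bp beyond the outer genes and 154395 bp long. The start sites of esg and wor are 91.7 kb apart and those of wor and sna 52.7 kb. The stretch holds 6 coding genes, the 3 members with CG15258, CG44869 and CG4161, and 9 genes for noncoding RNA. That is 3.89 coding genes per 100 kb (exact 95% Poisson interval 1.43 to 8.46), against 10.4 over the main arms. Only the members, 3 of the 6 coding genes, had a thresholded peak at an own start site, as 27.5% of all coding genes did.

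The density of thresholded peaks in this gene-poor stretch was 3.24 per 100 kb (interval 1.05 to 7.56, 5 peaks), and that of the main arms was 3.15. The replicates lay on opposite sides of their backgrounds, but both intervals contain the background. Replicate 1 had 0.648 (0.0164 to 3.61, 1 peak) against 2.15, and replicate 2 had 2.59 (0.706 to 6.63, 4 peaks) against 1.66. The 4 peaks of replicate 2 form 3 sites when those that overlap are merged. Candidates were at 64.1 per 100 kb (52.1 to 78.1, 99 candidates) against 79.1 over the main arms, 25.9 against 35.0 in replicate 1 and 63.5 against 76.4 in replicate 2. These intervals cover counting error only, and overlapping candidates are not independent. The length used for the stretch includes a copy of the transposable element blood (15446106 to 15453517), which held 0 candidates. Most candidates of the stretch, 79 of 99 (79.8%), lay in intergenic sequence, a class that took 20.2% of all candidates. The 2 shares are not like for like, since the stretch is gene-poor and its intergenic share of bases was not computed. There were 14 at promoters (14.1% against 19.3%), 5 in coding exons, 1 in a noncoding exon and 0 in introns.

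The thresholded peaks stood near esg, just upstream of wor, at sna and at 1 intergenic place between wor and sna. Between the esg downstream peak and the wor promoter lay 86.1 kb without a thresholded peak, although candidates continued through it, with 13, 9 and 16 in the successive 20 kb bins from 20 to 80 kb past the esg start site. The pooled signals of all 99 candidates of the stretch, peaks included, had a median of 20.2, against 19.6 over all candidates. The median of the candidates inside the 86.1 kb alone was not computed. The longest run without a pooled candidate lay between wor and sna, on the downstream side of sna, and spanned 13602 bp, from an intergenic peak to the candidate in the sna coding exon. A run between esg and wor was nearly as long, at 13567 bp. Replicate 2 had 6 candidates of its own inside the longer run, with signals of up to 39.2, and replicate 1 had 0.

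The remaining peak of the stretch covered 2L from 15463757 to 15464272. It lay in intergenic sequence 14.2 kb past the sna start site in the direction of transcription, and 761 bp downstream of the start site of the noncoding RNA gene lncRNA:CR44863. It was the weakest of the 6, with a signal of 57.7, at rank 3703, 12.3% of pooled peaks weaker and a −log10 IDR of 2.13. Replicate 1 had no region there at all. Replicate 2 had a candidate of 36.2 with a −log10 IDR of 1.45. It was also the only 1 of the 6 that was not in the thresholded list made from the replicate pair.

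**Figure D4:**
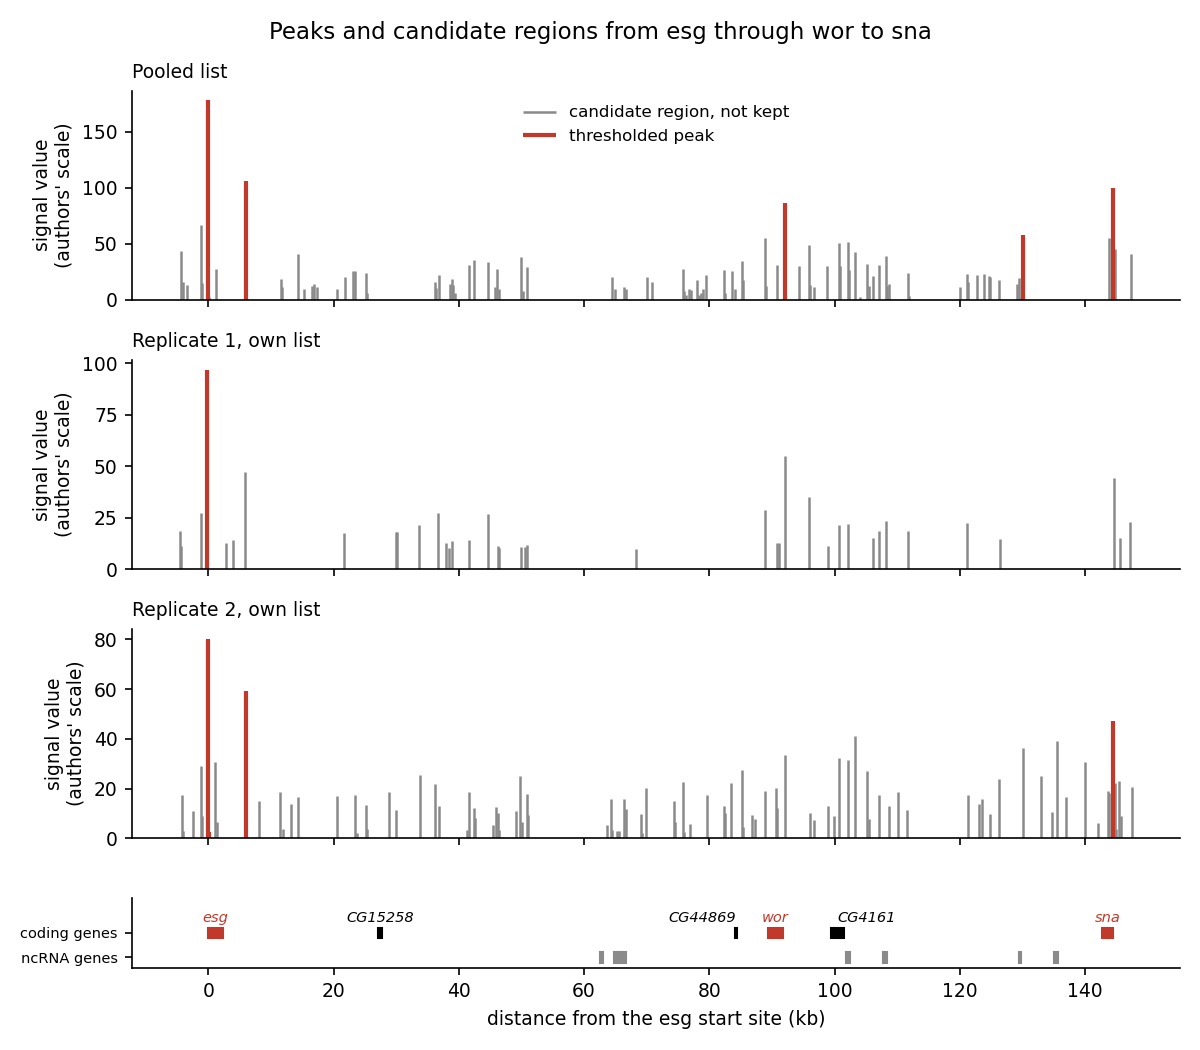
Regions from esg through wor to sna in the pooled list and in each replicate's own list, with distance from the esg start site (kb) on the x axis and the authors' signal value on the y axis. Red stems are thresholded peaks, grey stems are candidates that were not kept, and the lowest strip marks coding and noncoding RNA genes. The pooled panel shows 5 red stems, replicate 1 shows 1 and replicate 2 shows them at the esg promoter, esg downstream and sna.

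Distances to the nearest thresholded peaks outside are from the extended limits, 5000 bp beyond the genes. Past the esg end of the stretch the nearest was 56.9 kb away, at the promoter of Cul3 (signal 136). Past the sna end it was 7.36 kb away in intergenic sequence (2L from 15490359 to 15490874, signal 102). Around the extended span of scrt they were 38.4 kb away at the noncoding gene asRNA:CR43916 (132) and 41.7 kb away at Rcd5 (79.3). At the limit of 5000 bp itself the nearest pooled candidate inside and outside had signals of 40.7 and 52.9 at sna, 43.7 and 15.7 at esg, 11.4 and 10.1 at wor, and 41.0 and 11.0 at scrt. None of these was a thresholded peak.

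The position of the family's promoter summits was compared with that of other promoter peaks. The median of the 3543 promoter summits lay 25 bp upstream of the nearest start site, with quartiles of 91 bp upstream and 46 bp downstream. All 4 family summits lay further upstream than the first quartile. Those of wor (386 bp) and scrt (341 bp) were among the 83 promoter summits (2.34%) that lay 300 bp or more upstream. The median signal was 116 for promoter peaks, so esg and scrt were above it and sna and wor below.

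The 6 motifs were sought on either strand, up to 100 bp from each summit. The Snail core is CAGGTG. The general E-box CANNTG, which is read by Twist and other bHLH factors, includes it. Another E-box, CACATG, is bound by Twist. The early activator Zelda reads CAGGTAG, and CGATA is a part of the site of the promoter factors BEAF-32 and DREF. The site of GAGA factor is GAGAG. A match is a description of letters and does not show that a factor bound. CAGGTG was in 0 of the 6 family windows and in 6.44% of all pooled peaks, and CACATG in 0 of 6 and 7.87%. An E-box was in 5 of 6, all but scrt, and in 62.6% of all peaks. CGATA was in 1 of 6, esg downstream, and in 55.1% of all. GAGAG was in 4 of 6, at sna, both esg peaks and wor, and in 29.2% of all. Promoter peaks in general held GAGAG in 25.5% of cases and CGATA in 59.9%.

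The sna window held the sequence CAGGTAG once, on the strand of the gene, on 2L from 15478437 to 15478443, with its first base 183 bp upstream of the start site. Of all pooled peaks 0.924% held it. Directly before it in the gene's direction ran a stretch of GA repeats, seen in capitals in the sna sequence, and the window had 12 overlapping matches to GAGAG, a number that 24 of 4221 peaks (0.569%) reached. The summit of replicate 1, at 210 bp upstream, lay between the 2 blocks of repeats, and that of replicate 2, at 76 bp upstream, lay between them and the start site. The windows of the esg, wor and sna promoters each held 1 CACGTG, a palindromic E-box, which 3.70% of all peaks held. That hexamer was singled out after its matches were seen. The scrt window held none of the 6 motifs, like 8.39% of all pooled peaks. It was the poorest of the family in G and C, at 37.8% against 49.3 to 53.2% in the other 5 windows. Over all peaks the median was 42.3%, with quartiles of 35.8% and 49.3%. The scrt window thus lay inside the quartiles and the other 5 at or above the upper one.

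The nearest CAGGTG matches lay outside the windows but inside 2 of the 516 bp peaks, esg downstream and wor, and 15.7% of all pooled peaks held one somewhere in their length. At esg downstream it was 129 bp from the summit and at wor 137 bp. Both are shown with 20 bases on each side, in the gene's direction and with the match in capitals, from chr2L:15339926-15339971 (plus strand) and chr2L:15426083-15426128 (minus strand). At wor the gene's strand carries the reverse complement CACCTG.
esg downstream, CAGGTG: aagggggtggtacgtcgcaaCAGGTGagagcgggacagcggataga
wor promoter, CAGGTG: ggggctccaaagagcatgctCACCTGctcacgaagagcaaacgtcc
Among the 99 candidates of the esg to sna stretch 7 (7.07%) held CAGGTG within 100 bp of the summit, against 9.98% of all pooled candidates.

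**Figure D5:**
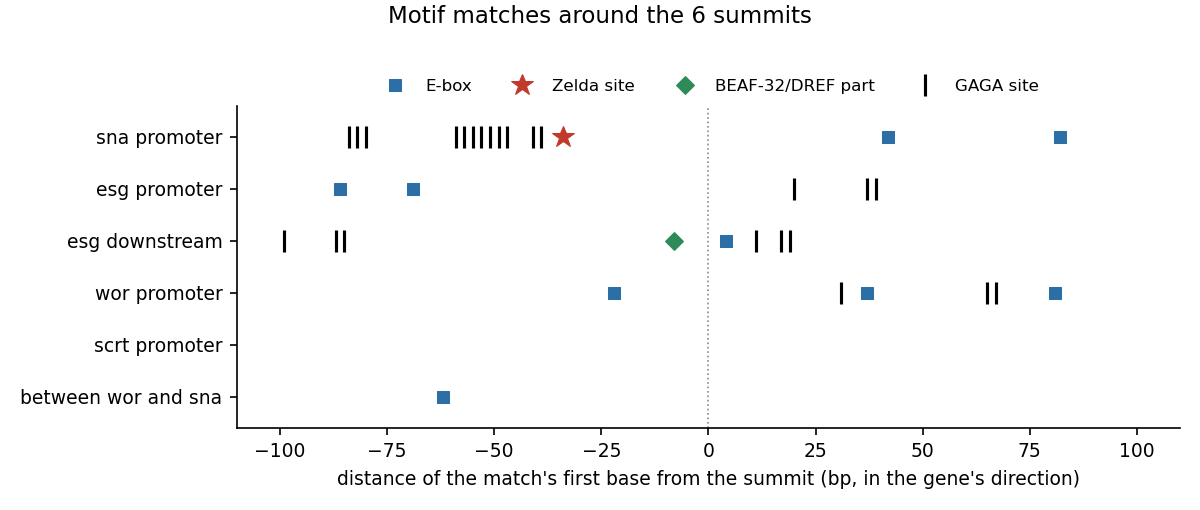
Positions of motif matches around the summits of the 6 family peaks (rows), with the distance of the first base of each match from the pooled summit in bp on the x axis, in the gene's direction. Blue squares are E-boxes, black bars GAGA sites, the red star is the Zelda site and the green diamond the part of the BEAF-32 and DREF site. The run of bars and the star lie to the left of the sna summit, and the scrt row is empty.

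A list of 20 partner genes, made of relatives, regulators of sna, corepressors, neuroblast genes and genes that Snail represses, was set beside the family. Of them 15 had a pooled peak within 5000 bp (52.7% of coding genes) and 9 had one at an own start site (27.5%). Among 2 more distant zinc-finger relatives, Kah had a peak of 105, nearest to the start site of its neighbour MED14, and CG12605 had none, with a strongest candidate of 39.5. Of 3 activators of sna, zld had a promoter peak of 81.4, in neither replicate's own list. The peak in the span of twi, of 38.8, was nearest to CG9896, and dl had none, with candidates of up to 59.6. All 3 corepressor genes had a peak, but only that of gro (216) was at its own start site, while those of CtBP (118) and ebi (584) were nearest to CG8031 and CG11885.

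Among 6 neuroblast genes 4 had a peak. The strongest at insc, which orients the neuroblast spindle, was at its own promoter with a signal of 52.8, and neither replicate kept it. The strongest at pros (261), stg (277) and dpn (67.8) were nearest to mgr, SP1029 and pnut, although pros, with 3 peaks, also had one at its own start site, and the proneural genes ase and l(1)sc had none, with candidates of up to 27.7 and 42.1. Of 6 genes that Snail represses 5 had a peak (52.7% of coding genes), each also at an own start site (27.5%). The strongest had signals of 244 at shg, 113 at sim (its stronger peak, in an intron), 111 at rho, 110 at brk and 98.1 at sog. Replicate 1 kept those of shg, rho, brk and sog in its own list, and replicate 2 kept only that of shg. Neither kept that of sim. The other gene, vnd, had none. Beside these, the promoter peak of wor at 86.5 had a lower signal than the strongest peak of each of the 5 genes in the same list. That of sna at 99.9 was above sog and below the other 4, and that of esg at 178 was above all of them except shg.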

How the data were processed

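Chromatin immunoprecipitation and sequencing was done on 2 biological replicates of whole embryos, with chromatin sheared to 200 to 800 bp, per the labels. The authors deposited thresholded (IDR limit 0.01) and ranked peak lists on dm6 for each replicate, for both replicates pooled and for the replicate pair. The signal of a peak and its −log10 IDR are the authors' deposited values. Aligner and peak caller are not named in the sources used here. The 1 thresholded pooled peak off the 6 main arms was left out.

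Summits were placed in Ensembl release 115 gene models, transposable elements excluded, with a promoter (500 bp) taking precedence over the 5′ UTR, then coding, 3′ UTR and noncoding exons, introns and intergenic sequence. Regions overlapped from 1 bp, and the strongest overlapping region stood for a replicate. Python 3.11.15, numpy 2.4.6, pandas 2.3.3 and scipy 1.17.1 were used, and the counting was tested on simulated data. No test was run, since there is 1 group.

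The rule for naming took the 4 genes, every thresholded pooled peak of their spans or the stretch, the 3 strongest other candidates of each gene, the 20 partner genes and any gene nearest to such a region. Members, partner list, motifs and rule were chosen with earlier results of these data known. CACGTG and the 2 CAGGTG matches beyond the windows were added after seeing them.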

Additional observations from a re-analysis of the deposited data

How the results depend on the processing

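Of 100 alternatives 49 left a value within the limits set for it and 51 moved it, and the cause was not tested. The 4 genes with a peak fell to 0 with no extension of the gene span, 2 among peaks above the median signal and 2 to 3 with a single replicate's list. By gene, no extension gave 0 peaks at sna, esg, wor and scrt, and peaks above the median 0 at sna, 1 at esg and 0 at wor. An extension of 2000 bp left 1 at esg. Leaving out a replicate gave 0 to 1 at sna, 1 to 3 at esg, 0 to 0 at wor and 2 to 2 at scrt, where overlapping peaks count singly.

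The background of 7353 coding genes fell to 1920 with no extension and 3183 by nearest coding start site. It lay at 5414 among peaks above the median signal and at 5118 to 6275 in single replicates. The 15 partner genes fell to 6, to 9 above the median and 9 by nearest start site, and to 6 to 10 in single replicates. The share of peaks weaker than the strongest was, in the replicate-pair list, 38.7% for sna, 72.8% for esg, 26.7% for wor and 61.9% for scrt. In single replicates it was 16.1% for sna (replicate 2 only), 58.1 to 61.2% for esg and 26.8 to 57.9% for scrt, and wor had no value.

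Candidates with no extension numbered 1 at sna, 2 at esg, 1 at wor and 16 at scrt, and 10 at scrt when merged. In single replicates they were 3 to 10, 7 to 10, 5 to 10 and 12 to 17. The stretch kept 3 peaks without its margins, 1 above the median and 1 to 4 in single replicates, and 59 merged candidates or 40 to 98 in single replicates. Against own candidate lists 5 peaks overlapped both replicates. CAGGTG was in 2 peaks within 250 bp and in 2 over the whole peak. A promoter width of 250 bp left 2 promoter peaks. The rho of 0.43 was 0.68 with summits within 100 bp.

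No counts are in the files, so depth is unknown, and with 2 replicates no spread can be estimated.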

Other observations

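The gene Tim17b2 lies upstream of sna, with its start site 6.47 kb from that of sna, just outside the limit of 5000 bp, and was chosen from knowledge of the locus, since a second (shadow) enhancer of sna is known there. Within 500 bp of the gene it had 0 thresholded pooled peaks. The 3 pooled candidates there had signals of 22.8, 35.4 and 39.3 with −log10 IDR of 0.15, 0.19 and 1.56. The summit of the 39.3 candidate lay past the end of Tim17b2, 36 bp upstream of the start site of another gene. Within the same 500 bp limit replicate 1 had 1 region, with a signal of 9.45, and replicate 2 had 3, with 3.06, 34.2 and 29.4. The region of 29.4 lay 39 bp upstream of that other start site. Within 5000 bp, the limit used for the other genes, there were again 0 thresholded peaks and 8 pooled candidates, of which 1 is the sna candidate of 40.7. The strongest had a signal of 52.9 and a −log10 IDR of 0.69 and lay on 2L at 15484078, just before the Tim17b2 start site.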
